A study of Rattus norvegicus with 4 samples.

Results

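The genes described here are 10 antioxidant genes of the kind that the transcription factor Nrf2 is known to control, namely Srxn1, Txnrd1, Prdx1, Txn1, Gclc, Gclm, Hmox1, Nqo1, Sod1 and Sod2. They were measured in primary cultures of neonatal rat ventricular myocytes, the beating muscle cells of the heart's lower chambers. Members were taken as every probe set, a group of short probes against 1 transcript, that carried exactly 1 gene symbol in the platform annotation and whose symbol was in this list. That gave 11 probe sets for 9 of the 10 genes, out of 15875 probe sets on the array. The only probe set bearing the symbol Prdx1 also bore that of Prdx1l1, so no value was taken for this peroxiredoxin. Control cells grew in dishes without coating. The cells compared with them grew on fibronectin, an adhesive protein of the extracellular matrix to which integrins attach. Cells of both groups spent 24 h in 10% serum, followed by 48 h of serum-free culture, and total RNA was hybridised to 2 arrays per group. The labels give no strain, sex or exact age of the animals and do not say whether replicates were independent cultures. The p-values therefore reflect sample-to-sample spread that could be technical.

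In resting cells Nrf2 is held by the adaptor Keap1 and sent for degradation. Oxidants and electrophiles modify Keap1, Nrf2 accumulates, pairs with small Maf proteins and binds antioxidant response elements in its target genes. Those targets make glutathione, reduce thioredoxin, degrade heme and reduce quinones. The superoxide dismutases turn superoxide into hydrogen peroxide, and in the heart, with its many mitochondria, these enzymes are known for limiting oxidative damage.

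The arrays also differed in quality measures, whose part in the values below was not tested. Signals were quantile normalized, raised to a floor of 23.4 (4.55 on the log2 scale) and given as log2, where a difference of 1 is a 2-fold difference. Across the 9519 tested probe sets, a correlation over genes and not over replicates, fibronectin replicate 2 stood apart with r = 0.775 to 0.794 against the other arrays, which reached 0.847 to 0.910 among themselves. Deposited values below 200 steps were whole multiples of a step, within 0.05 steps, and the median was only 50 steps on fibronectin replicate 2, against 390 to 1108 steps elsewhere. The ratio of 3' to 5' signal, which is higher when less signal comes from the far end of a transcript, was 1.64 and 1.15 for Gapdh on control replicates 1 and 2 and 6.02 and 3.52 on fibronectin replicates 1 and 2. For beta-actin the ratios were 1.46 and 1.40 on the controls and 13.0 and 6.29 on fibronectin. Hexokinase, a dim transcript, gave 3.77 and 4.12 on the controls against 3.11 and 7.0. Of 13 listed ventricular myocyte markers 12 were on the array, and all 12 lay above the floor on all arrays.

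Antioxidant genes did not share a direction between the coatings. Of the 11 probe sets, 10 passed the filter on dim signal, and 6 of these had a higher mean on fibronectin and 4 a lower mean. Their median log2 difference, fibronectin minus control, was 0.14, beside -0.02 over all tested probe sets. It was 0.34 beside 0.06 on the deposited scale and 0.29 beside 0.01 with the arrays shifted to equal medians, with 6 higher and 4 lower means in each. Txnrd1 had a lower mean in both of its probe sets. With each gene taken by its brightest tested probe set, 6 of 9 had a higher and 3 a lower mean, where 51.4% of all genes had a higher mean. The median by gene was 0.19, beside 0.02 over all genes. With limma's Benjamini-Hochberg adjustment over all tested probe sets, 0 of the 10 passed the threshold of 0.05, as did 0% of all tested probe sets. At an unadjusted p under 0.05 there were 2 of the 10. One was Srxn1, higher, where the background in that direction was 2.66%, and the other was the dimmer probe set of Txnrd1, lower, where it was 3.81%. Both fibronectin arrays exceeded both controls for 3 of the 10 (Srxn1, Txn1 and Nqo1), against a background of 19.3%, and lay below them for 2 (the dimmer Txnrd1 probe set and Sod2), against 19%. With 2 arrays against 2, an exact two-sided permutation test cannot go below p = 0.33, so no single gene can pass it.

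**Figure D1:**
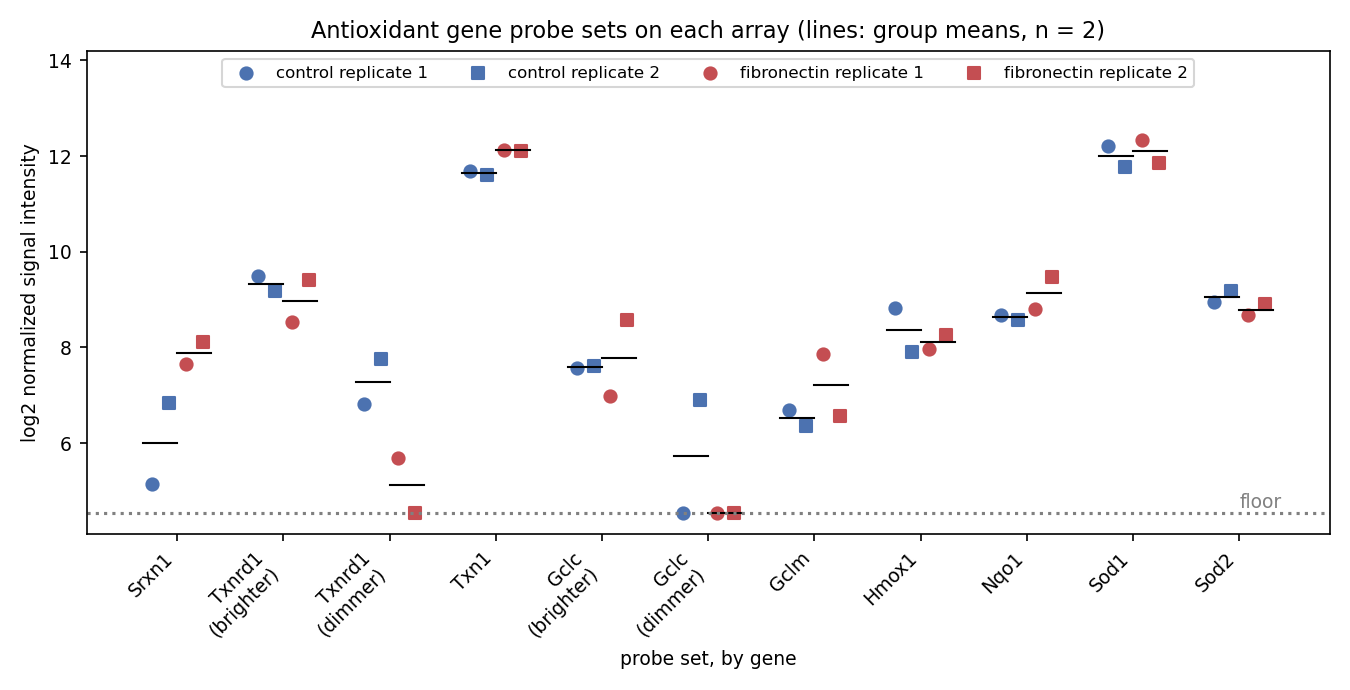
Log2 normalized signal intensity (vertical axis) of the 11 antioxidant probe sets (horizontal axis) on the 2 control arrays (blue) and the 2 fibronectin arrays (red). Circles are replicate 1, squares are replicate 2, black lines are group means and the dotted line is the floor of 4.55. Srxn1, Txn1 and Nqo1 have both red points above both blue points. The dimmer Txnrd1 probe set and Sod2 have both below, and the other probe sets overlap.

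The thioredoxin system, in which thioredoxin reductase passes electrons from NADPH to thioredoxin and on to peroxiredoxins, held the highest and the lowest difference among the members. Srxn1 encodes sulfiredoxin, which restores peroxiredoxins that peroxide has over-oxidised. Its probe set 1372510_at read 5.16 and 6.83 on control replicates 1 and 2 and 7.66 and 8.12 on fibronectin replicates 1 and 2. The fibronectin arrays lay close together above both controls, while the controls themselves lay 1.68 apart. The mean was 6.0 ± 1.19 on uncoated dishes and 7.89 ± 0.32 on fibronectin (SD, n = 2 each), a 3.73-fold higher value. That log2 difference of 1.90 (SE 0.64) had a 95% interval from 0.41 to 3.38 and limma's Benjamini-Hochberg adjusted p = 0.718. Of all tested probe sets, 0.116% had a difference at least as high, a share given only as a description. Its size rested on the controls, being 1.06 without control replicate 1 and 2.79 without control replicate 2. Control replicate 1 lay near the floor of 4.55, and with an offset of 50 in place of the floor the difference was 1.28.

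Txn1, the cytosolic thioredoxin that reduces disulfides in other proteins, had the tightest replicates of the members whose groups did not overlap. Its probe set 1398839_at read 11.69 and 11.60 on control replicates 1 and 2 and 12.14 and 12.11 on fibronectin replicates 1 and 2. The nearest arrays of the groups lay 0.41 apart, more than the arrays within either group. The means of 11.65 ± 0.06 and 12.12 ± 0.02 (SD, n = 2 each) differed by 0.47 (SE 0.24), 1.39-fold, with a 95% interval from -0.09 to 1.04 and limma's Benjamini-Hochberg adjusted p = 0.762. A higher or equal difference was found for 18.0% of tested probe sets. Leaving out any 1 array gave 0.44 to 0.54. The difference was 0.89 on the deposited scale, where the median difference of all tested probe sets was 0.06. With the arrays shifted to equal medians it was 0.84, so its size depended on the scaling.

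Txnrd1, the cytosolic thioredoxin reductase, was read by a pair of probe sets that disagreed in size. The brighter, 1398791_at, read 9.49 and 9.17 on control replicates 1 and 2 and 8.52 and 9.40 on fibronectin replicates 1 and 2. Fibronectin replicate 2 lay between the controls and fibronectin replicate 1 below them, so the groups overlapped. The difference was -0.37 (SE 0.38), with a 95% interval from -1.26 to 0.52. The dimmer, 1386958_at, read 6.81 and 7.75 on control replicates 1 and 2 and 5.70 on fibronectin replicate 1, and was at the floor on fibronectin replicate 2. There the deposited value of 11.7 was 6 steps of that array's scale. Both fibronectin arrays lay below both controls, and the difference was -2.16 (SE 0.74), with a 95% interval from -3.87 to -0.45 and limma's Benjamini-Hochberg adjusted p = 0.718. As 1 array was at the floor, the size of this difference is not fully measured. With an offset of 50 in place of the floor it was -1.37. Without fibronectin replicate 1 the probe set passed, with limma's Benjamini-Hochberg adjusted p = 0.0350, but so did 459 of all probe sets (4.82%). That fit rests on the single array where this probe set was at the floor and assumes that it varies like the controls, so its value of -2.68 is not a measured size.

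The gap between the Txnrd1 probe sets was -1.79, dimmer minus brighter. Among 850 genes with at least 2 tested probe sets, the second-brightest probe set had the lower difference in 58.1% and the median gap was -0.18. The size of the Txnrd1 gap is not fully measured, since its dimmer probe set was at the floor on 1 array, and with an offset of 50 in place of the floor it was -1.03. The 3' to 5' ratios of Gapdh and beta-actin were higher on the same fibronectin arrays. Where the probe sets lie along the transcript is not in the files used here, and the part of these ratios in the gap was not tested.

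**Figure D2:**
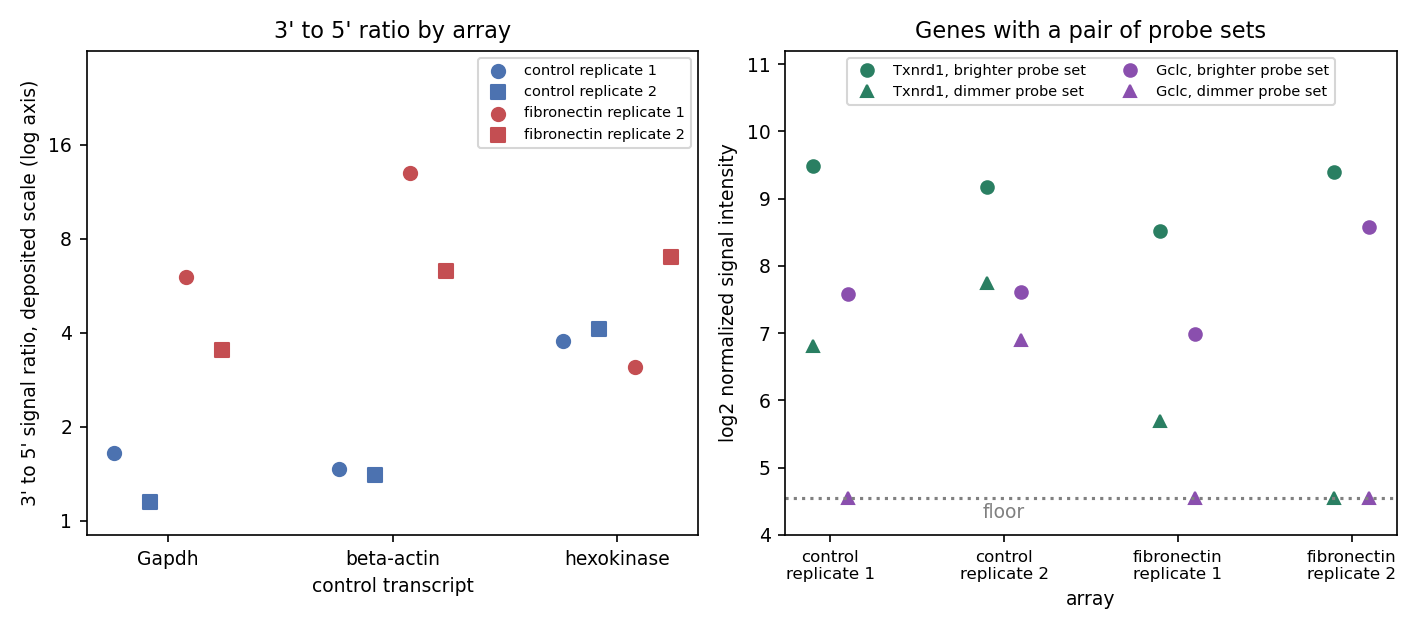
Left, ratio of 3' to 5' signal (log axis, deposited scale) of the Gapdh, beta-actin and hexokinase control transcripts on the control (blue) and fibronectin (red) arrays. Right, log2 normalized signal intensity of the brighter (circles) and dimmer (triangles) probe sets of Txnrd1 (green) and Gclc (purple) on each array. Gapdh ratios were 6.02 and 3.52 on fibronectin against 1.64 and 1.15 on the controls, and on fibronectin the dimmer Txnrd1 probe set read 5.70 and the floor of 4.55, and the dimmer Gclc probe set the floor on both arrays.

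Glutamate-cysteine ligase makes the first bond of glutathione, and its catalytic and modifier subunits, Gclc and Gclm, stood highest on different fibronectin arrays. The brighter Gclc probe set, 1372523_at, read 7.58 and 7.61 on control replicates 1 and 2 and 6.99 and 8.58 on fibronectin replicates 1 and 2. The controls were nearly equal, with fibronectin replicate 1 below them and fibronectin replicate 2 above. The mean difference of 0.19 (SE 0.55) therefore had a 95% interval from -1.09 to 1.47. It was -0.63 without fibronectin replicate 2 and 0.95 without fibronectin replicate 1. Gclm, read by 1370030_at, measured 6.69 and 6.36 on control replicates 1 and 2 and 7.86 and 6.57 on fibronectin replicates 1 and 2. Here fibronectin replicate 1 was the high array and fibronectin replicate 2 lay between the controls. The difference was 0.69 (SE 0.58), with a 95% interval from -0.67 to 2.04, or 0.05 without fibronectin replicate 1 and 1.38 without fibronectin replicate 2. Limma's Benjamini-Hochberg adjusted p was 0.942 for Gclc and 0.799 for Gclm.

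The other Gclc probe set, 1370688_at, was the member left out as dim. It was at the floor on control replicate 1 and on both fibronectin arrays and read 6.91 on control replicate 2. On fibronectin replicate 2 its deposited value was 2 steps of that array's scale. No direction can be read from it, since values at the floor have no order.

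Hmox1 and Nqo1, which are commonly used as reporters of Nrf2 activity, had means that differed in opposite directions, and neither passed limma's test. Nqo1 encodes a quinone reductase that carries electrons in pairs, which avoids semiquinone radicals. Its probe set 1387599_a_at read 8.69 and 8.58 on control replicates 1 and 2 and 8.80 and 9.47 on fibronectin replicates 1 and 2. All fibronectin values exceeded the controls, fibronectin replicate 1 by little. The difference of 0.50 (SE 0.36), 1.42-fold, had a 95% interval from -0.32 to 1.33 and limma's Benjamini-Hochberg adjusted p = 0.778. It was 0.17 without fibronectin replicate 2 and 0.83 without fibronectin replicate 1.

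Hmox1 encodes heme oxygenase-1, which opens the heme ring to biliverdin, carbon monoxide and iron. Its probe set 1370080_at read 8.83 and 7.91 on control replicates 1 and 2 and 7.96 and 8.26 on fibronectin replicates 1 and 2. Both fibronectin values lay between the controls. The difference was -0.26 (SE 0.42), with a 95% interval from -1.24 to 0.72, and it was 0.20 without control replicate 1 and -0.73 without control replicate 2. Macrophages, which clear red cells, also express this gene. Of 16 listed leukocyte and macrophage markers 9 were tested, and 7 of them had a lower mean on fibronectin, where 3449 of all 7101 genes did. Both fibronectin arrays lay below both controls in 4 of the 9, against 17.2% of all genes, and above them in 0, against 20.6%. Of the 9, 0 passed limma's test, as did 0% of all genes. None of the 16 was at the floor on all 4 arrays. Their summed normalized intensity was 2789 and 3596 on control replicates 1 and 2 and 1918 and 2521 on fibronectin replicates 1 and 2. For the 3 of 6 listed erythroid markers that were on the array it was 290 and 405 on the controls and 361 and 438 on fibronectin. Of these, 2 were tested and had a higher mean, as did 51.4% of all genes, and in both the groups overlapped. In such bulk RNA fewer cells of a type and less RNA per cell cannot be told apart, and the part of these cells in the Hmox1 values was not tested.

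The superoxide dismutases had log2 differences of 0.10 and -0.27, neither past limma's threshold. Sod1, the copper and zinc enzyme of the cytosol, read 12.22 and 11.77 on control replicates 1 and 2 and 12.33 and 11.86 on fibronectin replicates 1 and 2 in probe set 1367641_at. The spread within each group exceeded the difference of 0.10 (SE 0.29), whose 95% interval ran from -0.58 to 0.78. On the deposited scale the difference was 0.53, and with the arrays shifted to equal medians it was 0.48. Sod2, the manganese enzyme of mitochondria, read 8.95 and 9.17 on control replicates 1 and 2 and 8.67 and 8.91 on fibronectin replicates 1 and 2 in probe set 1370172_at. Both fibronectin values were lower, with 0.04 between the nearest arrays. The difference was -0.27 (SE 0.32), with a 95% interval from -1.01 to 0.47. It ran from -0.39 to -0.15 with any 1 array left out. Limma's Benjamini-Hochberg adjusted p was 0.946 for Sod1 and 0.845 for Sod2.

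**Figure D3:**
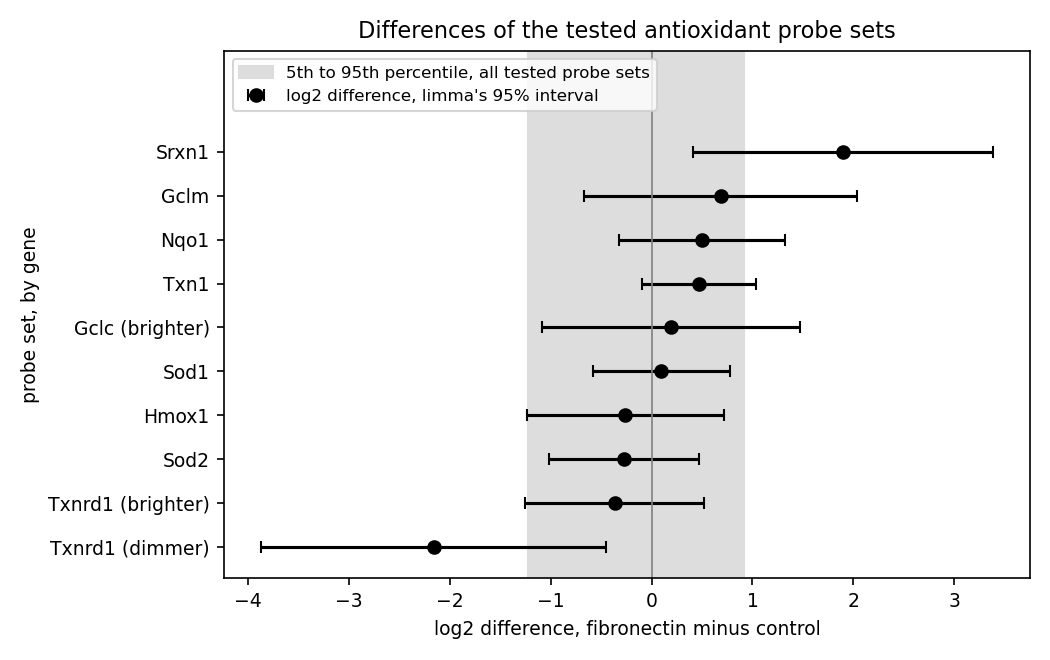
Log2 difference, fibronectin minus control (horizontal axis), of the 10 tested antioxidant probe sets (vertical axis), with limma's 95% intervals as bars. The grey band spans the 5th to 95th percentile of the differences of all tested probe sets, from -1.23 to 0.92. Srxn1 at 1.90 and the dimmer Txnrd1 probe set at -2.16 lie outside the band, and the other 8 lie inside it.

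The regulators of Nrf2 and further antioxidant enzymes gave no common direction either. From a list of 62 such genes, 52 had a probe set of their single symbol and 45 were tested, each by its brightest probe set. Of these, 19 had a higher and 26 a lower mean on fibronectin, with a median log2 difference of -0.11, beside 0.02 over all 7101 genes taken the same way. With limma's Benjamini-Hochberg adjustment 0 passed, against a background of 0%, and 2 had an unadjusted p under 0.05. These were Taldo1, higher, as were 3.03% of all genes at that p, and Prdx6, lower, as were 2.65%, so the count is no larger than the background gives. The fibronectin arrays lay above both controls for 9 of the 45, against 20.6% of all genes, and below them for 6, against 17.2%.

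Nfe2l2, the gene of Nrf2 itself, read 9.02 and 9.40 on control replicates 1 and 2 and 9.19 and 8.67 on fibronectin replicates 1 and 2, a difference of -0.28 (SE 0.35). The groups overlapped. Keap1, its inhibitor, read 7.61 and 7.50 on control replicates 1 and 2 and 7.83 and 8.39 on fibronectin replicates 1 and 2, a difference of 0.55 (SE 0.39) without overlap. Transcript levels of Nfe2l2 and Keap1 do not measure how much Nrf2 protein is active. The small Maf gene Mafg differed by 0.88 (SE 0.50) and Mafk by -0.27 (SE 0.46). Nfe2l1, an Nrf2 relative, differed by 0.51 (SE 0.38), but by -0.38 and -0.36 in its dimmer probe sets. Sqstm1, an autophagy adaptor that binds Keap1, differed by -0.46 (SE 0.52), with -0.15 and -1.64 in its other probe sets.

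Among the thioredoxin and peroxiredoxin genes, 5 of 11 had a higher and 6 a lower mean, with a median of -0.07. Prdx6, a peroxiredoxin that also acts on phospholipids, read 10.07 and 10.10 on control replicates 1 and 2 and 8.76 and 9.09 on fibronectin replicates 1 and 2. Its difference of -1.16 (SE 0.30), 2.24-fold lower, had limma's Benjamini-Hochberg adjusted p = 0.596, the lowest of the 45 genes. Both fibronectin arrays lay below both controls. Txnl1, a thioredoxin-like protein, differed by 0.87 (SE 0.40), with 0.17 in its other probe set. The mitochondrial members Txnrd2, Glrx2 and Txn2 differed by 0.54, 0.54 and -0.26, and the thioredoxin inhibitor Txnip by -0.31.

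Glutathione users had lower means in 8 of 12 genes, with a median of -0.25. The transferase gene Gstm1 differed by -1.42 (SE 0.71), and Abcc1, which exports glutathione conjugates, by -1.46 (SE 0.84) with fibronectin replicate 2 at the floor. Without fibronectin replicate 1, Abcc1 and the microsomal transferase gene Mgst3 passed limma's test, with Benjamini-Hochberg adjusted p = 0.0292 and 0.0494, as did 459 of all probe sets (4.82%). That fit rests on fibronectin replicate 2 alone, the array that stood apart, and assumes that it varies like the controls. Mgst3 differed by -1.67 there, and the size for Abcc1 is not measured because it was at the floor on that array. The peroxidase gene Gpx3 differed by -0.54 (SE 0.37). Against them, Gss, the second enzyme of glutathione synthesis, differed by 0.60 (SE 0.51), Gpx1 by 0.31 and Gstp1 by 0.26. The catalase gene Cat and the extracellular dismutase gene Sod3 differed by -0.39 (SE 0.44) and -0.56 (SE 0.37). Markers of fibroblasts, which such cultures can contain, had a lower mean on fibronectin in 10 of 14 tested genes, where 3449 of all 7101 genes did. Both fibronectin arrays lay below both controls in 6 of the 14, against 17.2% of all genes, and above them in 2, against 20.6%. Of the 14, 0 passed limma's test, as did 0% of all genes. None of the 14 markers was at the floor on all 4 arrays. They had summed intensities of 50380 and 68870 on control replicates 1 and 2 and 39460 and 54330 on fibronectin replicates 1 and 2. The part of these cells in the values above was not tested.

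Enzymes that supply NADPH, the electron source of both the thioredoxin and the glutathione system, had a higher mean in 5 of 5 tested genes, with a median of 0.60, where 51.4% of all genes had a higher mean. Both fibronectin arrays exceeded both controls in 3 of the 5, against 20.6% of all genes. This role is 1 of several in a list chosen with earlier results of these data known, so these shares are only a description. Taldo1, the transaldolase of the pentose phosphate pathway, read 8.53 and 8.58 on control replicates 1 and 2 and 9.54 and 9.43 on fibronectin replicates 1 and 2. That is a difference of 0.93 (SE 0.31), 1.91-fold, with limma's Benjamini-Hochberg adjusted p = 0.718. Me1, malic enzyme, differed by 0.60 (SE 0.39), but by -0.55 in its dimmer probe set, and Idh1, cytosolic isocitrate dehydrogenase, by 0.48 (SE 0.30). None of the 5 passed limma's test.

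Of the heme, iron and metal genes 3 were tested. Fech, whose enzyme inserts iron to form heme, differed by 0.44 (SE 0.38), the constitutive heme oxygenase gene Hmox2 by -0.43 (SE 0.47) and the metallothionein gene Mt2A by -0.81 (SE 0.44). Of 6 detoxification genes 1 had a higher mean, the epoxide hydrolase gene Ephx1 at 0.58 (SE 0.46). Aldh3a2 differed by -0.79 (SE 0.57), Akr1b8 by -0.33 (SE 0.42) and Ugdh by -0.14 (SE 0.32).

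**Figure D4:**
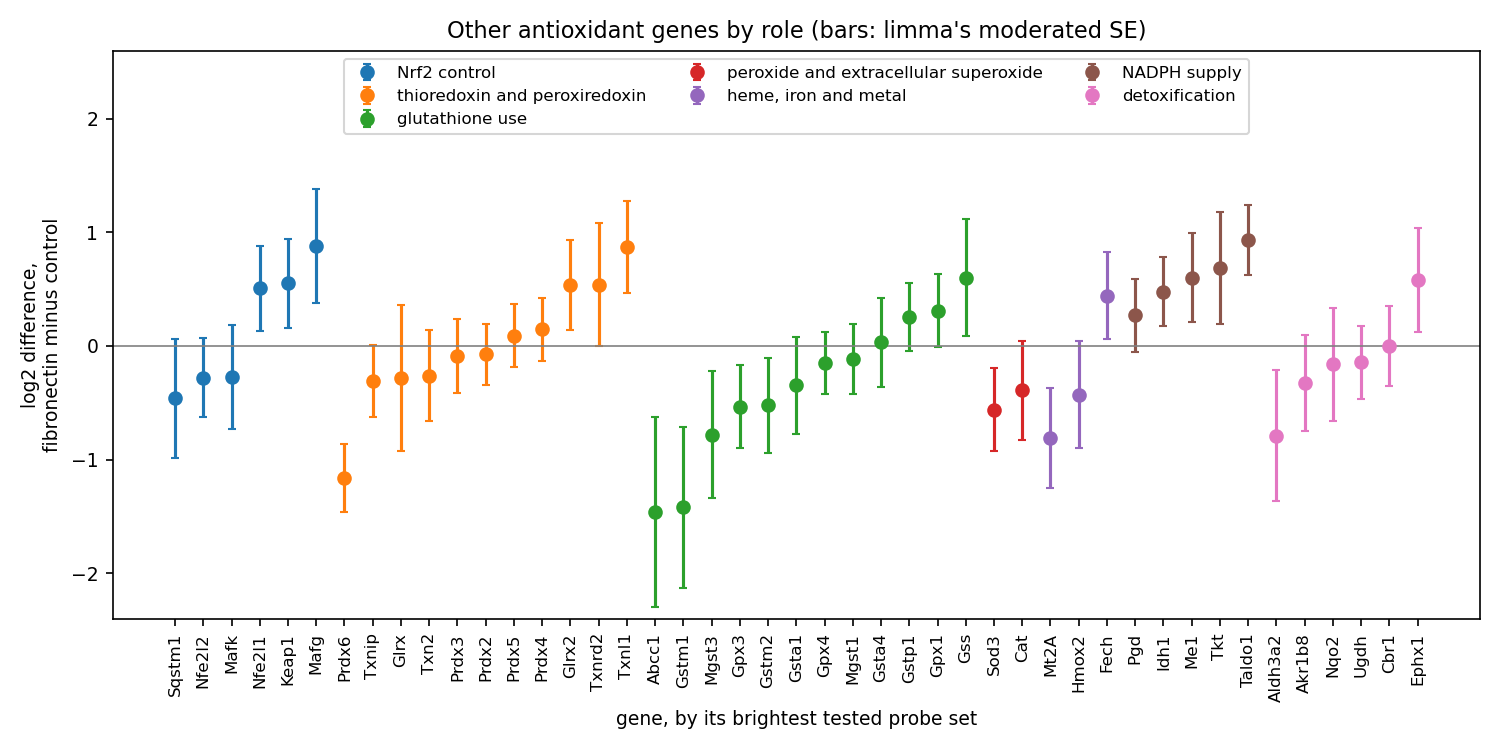
Log2 difference, fibronectin minus control (vertical axis), of 45 other antioxidant genes (horizontal axis), each by its brightest tested probe set, coloured by role, with limma's moderated SE as bars. The 5 NADPH supply genes (brown) all lie above 0, Prdx6 lies at -1.16, and every other role has genes on both sides of 0 except the pair of peroxide and extracellular superoxide genes.

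To show where an antioxidant response element lies near these genes, RefSeq promoters of the GRCr8 assembly, 250 bases before to 50 after each start, were searched on both strands for the core TGACNNNGC. Promoters were found for 9 of the 10 members, with 10 windows, and 4 of those windows held the core, beside 12.1% of all 33469 promoters. The windows are printed 5' to 3' on the strand of the gene, with the match in capitals, which here is always the core on the opposite strand.
Gclm: cggtttctGCTTAGTCAttgtcttc
Txnrd1: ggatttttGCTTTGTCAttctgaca
Prdx1: gggaaagcGCTGAGTCAtaccccgc
Sod2: cgctgccgGCAGGGTCAgcgcctag
They lie at chr2:213031955-213031979 (plus strand) for Gclm, chr7:22755966-22755990 (minus strand) for Txnrd1, chr5:135383763-135383787 (plus strand) for Prdx1 and chr1:50050187-50050211 (minus strand) for Sod2. A longer form of the core, with a further A at its end, was present in the Gclm and Txnrd1 windows and in 3% of all promoters. The 3 tested genes with a match had differences on both sides of 0, at 0.69 for Gclm, -0.27 for Sod2 and -0.37 and -2.16 for the Txnrd1 probe sets.

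Srxn1, the member with the highest difference, held no TGACNNNGC in this window. It held the AP-1 core TGANTCA, a motif searched after the promoters had been read, at 2 places, beside 7.33% of all promoters with at least 1.
Srxn1, farther from the start: tgagggccTGAGTCAccacgctg
Srxn1, at the start: actcacccTGAGTCAgcgacccg
They lie at chr3:161064742-161064764 and chr3:161064799-161064821 (plus strand), and the capitals begin 62 and 5 bases before the start. TGANTCA can share its letters with TGACNNNGC, as it does at the Prdx1 match above. Read with the 2 letters after it, the Srxn1 match at the start differs from TGACNNNGC in 1 letter. The search for that exact core does not count such a site, so Srxn1 cannot be said to lack a related element. A match is a run of letters, and no match says only that the letters are not in this window. The array does not measure binding at any of these sites.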

How the data were processed

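Signal was measured on 4 expression arrays, with 2 groups of 2. The values are linear signal intensities as deposited, 1 for each probe set on each array. Their image processing and scaling target are not given in the sources used. Quantile normalization was run on all 15875 probe sets, the 9 Affymetrix control probe sets were left out, and values were raised to a floor, the 20th percentile. The 40% with the lowest mean log2 signal, 6347 probe sets, were left out as dim. The coatings were compared in limma 3.58.1 under R 4.3.3 (lmFit, then eBayes with its trend option), two-sided, with Benjamini-Hochberg adjustment over 9519 probe sets. The fit was run on simulated data only to check that the differences put in were recovered on average. All simulated probe sets had the same spread, so this does not check the calls on these arrays. Gene names came from the platform annotation, in which 12783 probe sets had 1 symbol, 312 several and 2771 none. For 12748 of the first, the Entrez identifier was found in the GRCr8 gene table. Precision is limited by the number of arrays.

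All member probe sets were named. Of the other antioxidant genes, up to 3 per role and direction with the smallest p were named, with Nfe2l2 and Keap1, and Mgst3 was named after its value was seen. With 4 arrays no likeness between genes was measured. Members and lists were chosen with earlier results of these data known. The marker lists for endothelial cells (2 tested, 1 lower), smooth muscle (5 tested, 2 lower) and neural cells (2 tested, 0 lower) had 0 genes that passed, as did 0% of all genes. In both neural genes the fibronectin arrays lay above both controls, as in 20.6% of all genes, with a median log2 difference of 1.33. Their part in the values above was not tested.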

Additional observations from a re-analysis of the deposited data

How the results depend on the processing

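The choices varied were scaling (none, or equal medians), the dim filter (none, or 60% left out), the floor (none, or an offset of 50 instead), the variance model, the threshold (0.10), a replicate block, and the omission of each array. The filter, the variance model and the block leave a member's difference unchanged by construction. Under them only its p-value could move, so their kept directions carry no information. Every turn of sign came with 1 array left out. Of 125 values of member differences under alternatives, 119 kept direction and side of the threshold, 5 turned sign and 1 newly passed. With 1 array left out, differences ran from -0.13 to 0.33 for Sod1 (-0.13 without control replicate 2, -0.12 without fibronectin replicate 1), from -0.73 to 0.20 for Hmox1, from -0.63 to 0.95 for the brighter Gclc probe set, from -0.81 to 0.069 for the brighter Txnrd1 probe set and, over the fibronectin omissions alone, from -2.68 to -1.61 for the dimmer one, which fell under the dim filter without either control. The number past the threshold then ran from 0 to 1 for member probe sets, from 0 to 2 for other antioxidant genes and from 0 to 459 for all probe sets, and 6 to 9 member probe sets did not overlap. Fewer arrays overlap less by construction, and 61.6% to 80.2% of all tested probe sets did not overlap in those fits. These fits assume that a lone array varies like the other group. With the filter at 60%, 7 member probe sets were tested (Srxn1, Gclm and the dimmer Txnrd1 probe set were left out) and 3 of them did not overlap. The longer response element was found in 2 member windows and the AP-1 core, added after seeing the data, in 2. The labels do not say that replicate numbers pair samples. Across tested probe sets, deviations from the group means correlated with r = 0.271 between control replicate 1 and fibronectin replicate 1. With 2 arrays per group the replicate 2 deviations are the same with their sign turned, so they give the same r by construction. With the replicate number as a block, 0 member probe sets passed, with a lowest adjusted p of 0.0525 in limma for Srxn1. In that fit 2 other antioxidant genes (Txnl1 and Prdx6) and 234 of all probe sets passed. The coarse steps of fibronectin replicate 2 limit the dimmest values.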
